A study of Rattus norvegicus with 47 samples.

Results

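The genes described here are those whose blood mRNA level stood furthest from its starting value at 24 h post MCA occlusion, the last time point sampled. They were chosen by the measured means themselves. A probe set with a gene symbol was kept when its mean log2 signal at 24 h differed from that at 0 h by 0.5 or more (1.41-fold), and when this difference was larger in size than the difference at 1, 2, 3 and 6 h. Of 21406 probe sets with a symbol, 285 (1.33%) met both conditions, 182 by a rise and 103 by a fall. They carry 266 different symbol entries, 178 among the rises and 88 among the falls, and 12 probe sets are annotated to more than 1 gene. The choice was made from the changes from 0 h, so these changes describe the genes and are not tested again.

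The samples were whole blood cell pellets of 8 male spontaneously hypertensive rats (SHR) aged 16 weeks, an inbred strain with high blood pressure. A silicon-coated thread was used to block the middle cerebral artery (MCA). It was withdrawn under renewed anesthesia after the 1 h and before the 2 h sample, so the step between these samples spans this event. Each rat was bled at 0 h, before isoflurane anesthesia and occlusion, and at 1, 2, 3, 6 and 24 h after it, giving 8 arrays per time point and 7 at 6 h, 47 in all. All groups share the strain, sex, age and heparin, and no sham-operated rats were analysed here. The 0 h sample was the first draw and the 24 h sample the last, so that repeated bleeding and time cannot be told apart. Blood came from a tail vein at 0 to 6 h and from the heart, after a fatal dose of anesthetic, at 24 h, so that time, draw site and terminal anesthesia cannot be told apart at 24 h. Values are the authors' means and SDs of log2 signal over the arrays of a time point. The values of single rats were not analysed here, and whether groups overlap is therefore not given. In whole blood, fewer cells of a type and less RNA per cell cannot be told apart.

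Whole blood RNA comes from several cell populations. Young red cells, the reticulocytes, still hold RNA for iron uptake, haem synthesis and the membrane skeleton, and lose it as they mature. Platelets carry RNA made by their parent megakaryocytes. Leukocytes exposed to interferon switch on a large set of antiviral genes, and natural killer (NK) cells and cytotoxic T cells carry granzymes, together with lectin-like receptors that read class I molecules on other cells.

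The rises and the falls followed different courses before 24 h. The median change of the 182 rises was 0.40 at 1 h, then 0.23 at 2 h, followed by 0.27 at 3 h, 0.07 at 6 h and 0.60 by 24 h on the log2 scale. The median of the 103 falls was -0.30 at 1 h, then -0.36 at 2 h, followed by -0.48 at 3 h, -0.52 at 6 h and -0.73 by 24 h. The rises thus went up at 1 h, were back near the starting level at 6 h and went up again, while the falls went down by degrees. The median change over all 27596 probe sets stayed between 0.04 and 0.07 at every time point.

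**Figure D1:**
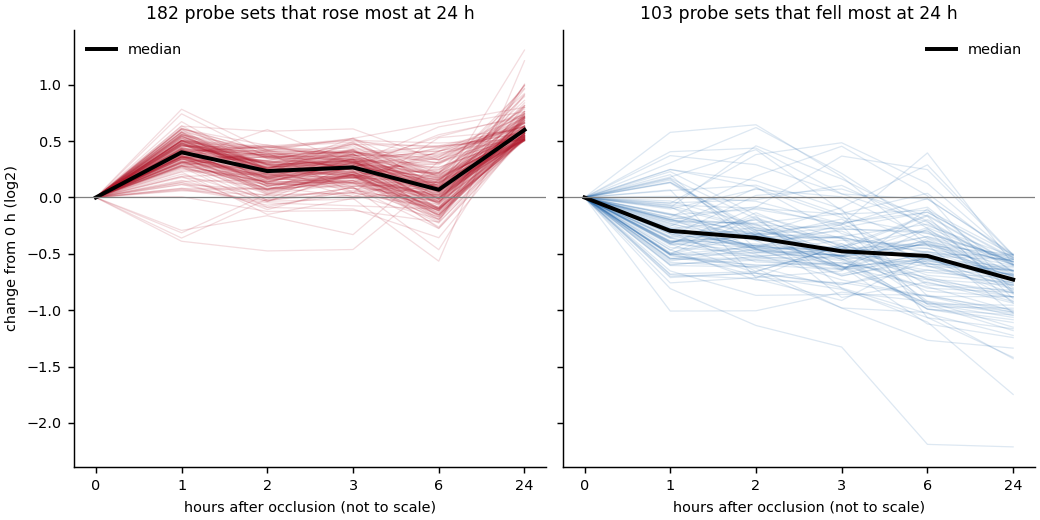
Change from 0 h in mean log2 signal for each of the 182 rising probe sets (left, red) and 103 falling probe sets (right, blue) at each time point, with the median in black. The median of the rises was 0.40 at 1 h, then 0.07 at 6 h, and reached 0.60 by 24 h. That of the falls went from -0.30 at 1 h to -0.73 at 24 h.

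Among the rises, the largest of the earlier changes lay at 1 h for 135 of 182 probe sets, and 163 had a higher mean at 1 h than at 6 h. At 6 h, 155 of the 182 had less than 50% of their 24 h change, and 67 lay on the other side of the starting level. Among the falls, 48 of 103 had their largest earlier change at 6 h, 51 had more than 75% of the 24 h change in place by then, and 26 had less than 50%. In all, 5 rises and 33 falls moved further in the same direction at every later time point. Of all 21406 probe sets with a symbol, most of which changed little at 24 h, 4268 had their largest earlier change at 1 h and 6569 at 6 h, and 11462 had a higher mean at 1 h than at 6 h. At 6 h, 6517 of them had less than 50% of their 24 h change, 13227 had more than 75% and 4248 lay on the other side of the start, and 180 moved further in 1 direction throughout. The choice itself keeps every earlier change below that at 24 h, so these counts describe the courses and nothing is read from them.

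**Figure D2:**
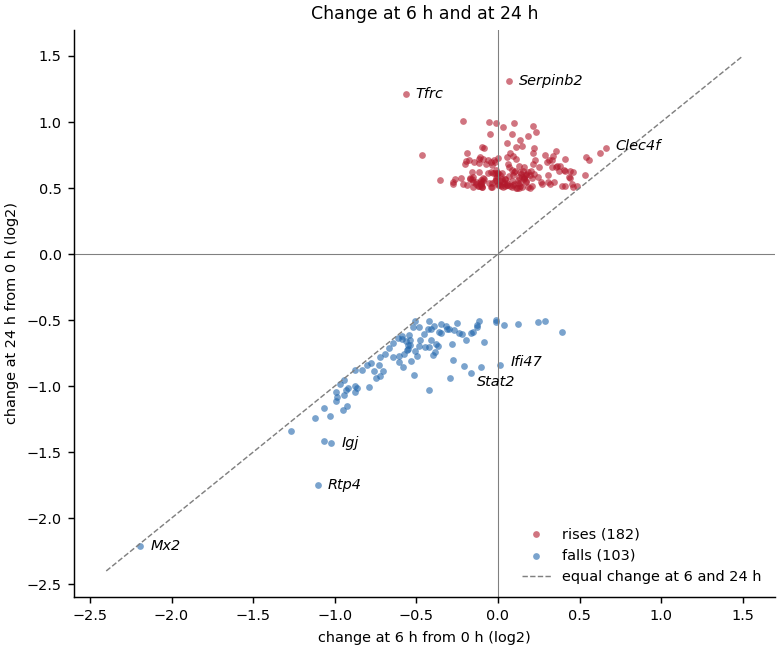
Change from 0 h in mean log2 signal at 6 h (horizontal axis) and 24 h (vertical axis), 1 point per probe set, with rises in red and falls in blue. The dashed line marks equal change at both times. The rises lie around a 6 h change of 0 (median 0.07), while many falls, such as Mx2, lie close to the line.

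The 24 h change exceeded the highest deposited SD of the probe set in 180 of 182 rises and 102 of 103 falls. The lead of 24 h over the earlier time points was smaller: it exceeded that SD in 39 rises and 14 falls, and in 95 of the 285 it was under 0.1. Which time point was furthest from 0 h is therefore uncertain for many of them. In a moderated test of 24 h against 0 h at a false discovery rate (FDR) of 0.05, 17.4% of the 27596 probe sets were higher and 13.9% lower. When the means of each time point were first centred on their median, the share of higher among called probe sets went from 55.6% to 37.3%. Of the rises, 181 of 182 were called, the other being Fam134b (0.73, SE 0.41), and all 103 falls were called, as their choice by this difference would give. Between 6 and 24 h, 10.2% of all probe sets were higher and 8.68% lower, against 152 of the 182 rises and 28 of the 103 falls, a difference the choice also favoured.

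The limits of the choice can be seen from the genes beside them. A rise of 0.5 or more was found in 2.11% of the probe sets with a symbol (451) and a fall of that size in 3.41% (730), so the genes with their extreme at 24 h made up 40.4% of such rises and 14.1% of such falls. Just inside the threshold were Cmtm3, Vsig4 and Gucy1a3 among the rises, at 0.501, 0.503 and 0.504, and Ccl9 and an entry for Zc3hav1l and Zc3hav1 among the falls, at -0.505 and -0.508. Just outside it were Uros, Ibtk and Wdr45 on the rising side and Znfx1, Polr2d and Lypla1 on the falling side. By the other condition, Mpst, Bpifa2 and Me1 led their earlier changes by the least among rises, and Ptbp1, Gbp5 and Srsf3 among falls. Another 39 rises and 32 falls of the same kind were found among the 6190 probe sets without a symbol.

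Serpinb2, an inhibitor of plasminogen activators made by monocytes and macrophages, had the largest rise. Its mean log2 signal was 5.13 ± 0.29 before occlusion (SD, n = 8), 5.59 ± 0.33 at 1 h, 5.20 ± 0.29 at 6 h (n = 7) and 6.44 ± 0.47 by 24 h, 2.48-fold above the start. The other 14 of the 15 largest rises were Tfrc, Fam92a1, Ank1, Bco1, Fam183b, Asns, Slc25a37, Bbs7, Mapk10, Lyve1, Pmm1, Tcp11l1, Fn3k and Cd93, with log2 changes from 1.21 down to 0.82. Several of these are genes of red cells.

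Tfrc encodes the transferrin receptor, through which red cell precursors take up iron. Its mean was 8.16 ± 0.12 before occlusion (SD, n = 8), 8.39 ± 0.26 at 1 h, then 8.01 ± 0.37 at 2 h, followed by 8.15 ± 0.28 at 3 h, 7.59 ± 0.29 at 6 h (n = 7) and 9.37 ± 0.37 by 24 h. It thus lay below its start at 6 h and 2.32-fold above it at 24 h (log2 change 1.21, SE 0.14), and the step from 6 to 24 h was 1.78. Slc25a37, the mitochondrial iron importer, was at 10.01 ± 0.24 before occlusion, 10.43 ± 0.19 at 1 h, 10.04 ± 0.33 at 6 h and 10.97 ± 0.24 by 24 h. Eif2ak1, the kinase that holds back globin synthesis when haem is short, was higher by 0.80 at 24 h (SE 0.10), Slc40a1, the iron exporter ferroportin, by 0.63, and Blvrb, a biliverdin reductase, by 0.52. Of these 5 genes of iron and haem, 3 were below their 0 h level at 6 h.

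Genes of the red cell membrane skeleton were also among the rises. Ank1, which encodes the ankyrin that ties the skeleton to the membrane, was at 9.92 ± 0.18 before occlusion, 10.51 ± 0.14 at 1 h, 9.87 ± 0.34 at 6 h and 10.92 ± 0.29 by 24 h, a rise of 1.00 (SE 0.11). Slc4a1, the band 3 anion exchanger to which ankyrin binds, was at 11.94 ± 0.11 before occlusion, 11.71 ± 0.33 at 6 h and 12.51 ± 0.24 by 24 h. The spectrin gene Sptb, the capping protein gene Tmod1 and the blood group gene Rhd were higher by 0.54 to 0.62. The median of the 6 rising probe sets of the membrane skeleton and blood groups was 0.52 at 1 h, -0.07 at 6 h and 0.57 by 24 h. Genes of red cell maturation and metabolism were Fn3k (0.84), whose product removes sugar from glycated proteins, Alox15 (0.70), the lipoxygenase that attacks mitochondria in reticulocytes, the ubiquitin ligase genes Ube2o (0.62) and Trim58 (0.54), and the transcription factor gene Sox6 (0.51).

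**Figure D3:**
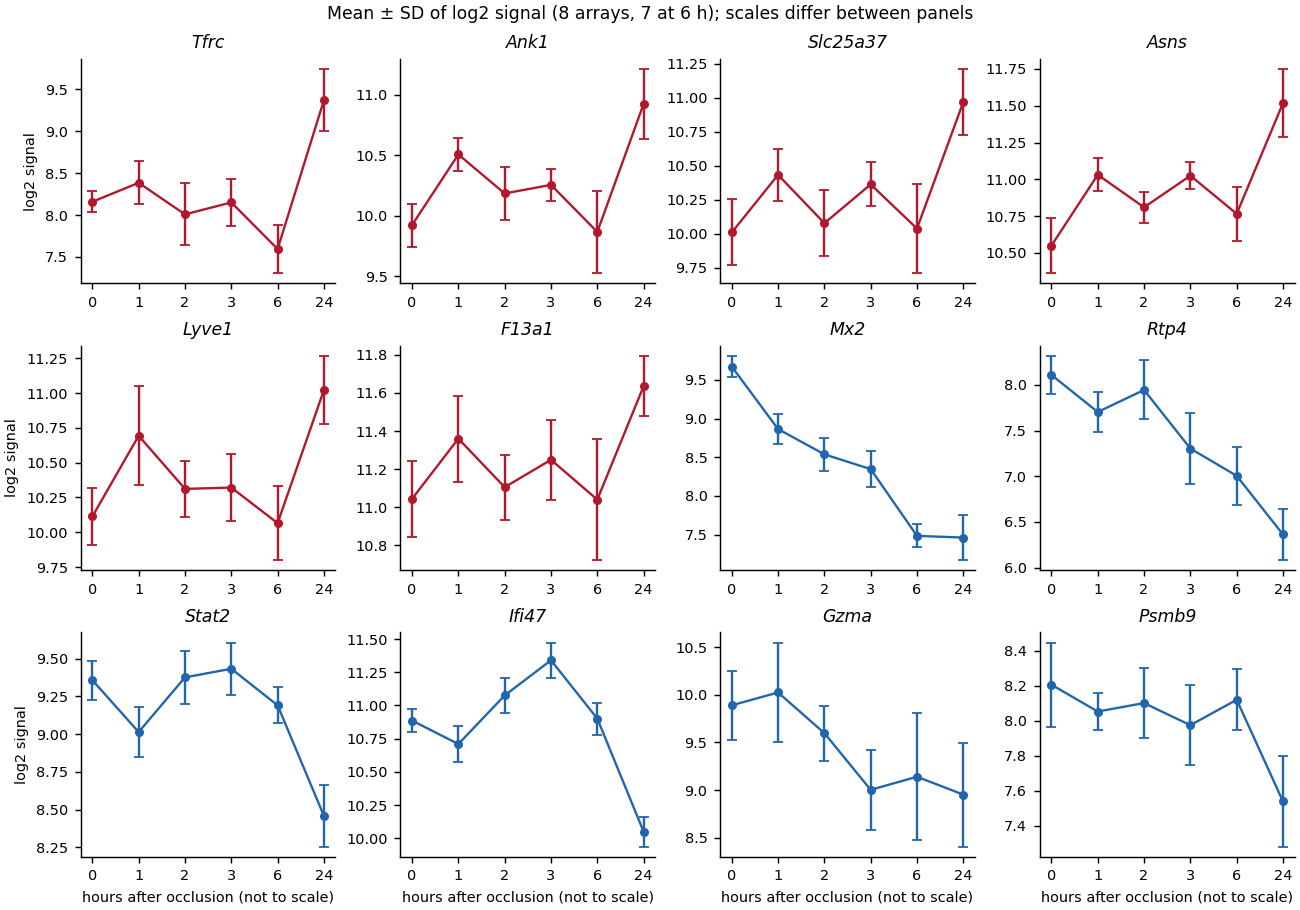
Mean log2 signal with its SD (error bars) at each time point for 6 rising genes (red) and 6 falling genes (blue), from 8 arrays per time point and 7 at 6 h, with a vertical scale of its own in each panel and times not to scale. Tfrc was at 7.59 after 6 h and at 9.37 after 24 h, while Mx2 was already at 7.48 at 6 h and at 7.46 by 24 h.

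The wider list of erythroid and reticulocyte genes held 22 probe sets for 19 genes. In the moderated test of 24 h against 0 h, 15 of these were higher and none was lower. Among all probe sets the shares were 17.4% and 13.9%. The list holds 5 probe sets of the rises, whose calls against 0 h follow from the choice. Against 6 h, 15 were higher and none was lower. The median change of the list at 24 h was 0.39, that of all probe sets 0.04. Beside the 5 genes already among the rises, Trim10, Add2, Ermap, Rhag and Epb42 were higher by 0.45 to 0.51, and the 2 probe sets of Rhag held identical values. The 7 probe sets that were not called included those for beta-globin (Hbb) and for Alas2, the first enzyme of haem synthesis in red cells, which changed by 0.02 and 0.01. The list of haem synthesis and iron genes shares Tfrc and Alas2 with the erythroid list. It had 12 of 21 probe sets higher and none lower, with a median of 0.27. Among the 12, 4 belonged to the rises, so their calls follow from the choice.

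Genes for glutathione and amino acid supply were another group of rises. Gclm, the regulatory subunit of the enzyme that makes the glutathione precursor, was at 9.43 ± 0.24 before occlusion (SD, n = 8), 9.48 ± 0.35 at 6 h (n = 7) and 10.16 ± 0.21 by 24 h. The glutathione transferase genes Gstm5, Gsta4 (3 probe sets) and Gsta1 were higher by 0.55 to 0.69. Asns, which makes asparagine, was at 10.55 ± 0.19 before occlusion, 11.03 ± 0.11 at 1 h, 10.77 ± 0.19 at 6 h and 11.52 ± 0.23 by 24 h (log2 change 0.97, SE 0.08). Slc3a2, the shared heavy chain of several amino acid carriers, was higher by 0.72, the aromatic amino acid carrier gene Slc16a10 by 0.57 and the mitochondrial folate enzyme gene Mthfd2 by 0.51. Each of these 10 probe sets had less than 50% of its 24 h change at 6 h, as did 155 of all 182 rises.

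Another 12 rises are known from platelets. They were Trpc6 and Pde5a, with log2 changes of 0.78 and 0.72, and F13a1, Rab27b, Sytl4, Alox12, Vcl, Itga2, Slc18a2, Prkar2b, Gnaz and Gucy1a3, with changes of 0.50 to 0.59. F13a1 encodes the clot-stabilizing factor XIII subunit, Itga2 a collagen receptor chain, Slc18a2 the carrier that loads serotonin into granules, Rab27b and Sytl4 parts of the granule release machinery, and Pde5a and Gucy1a3 act on cyclic GMP. F13a1 was at 11.04 ± 0.20 before occlusion, 11.36 ± 0.23 at 1 h, 11.04 ± 0.32 at 6 h and 11.64 ± 0.16 by 24 h. In the platelet and megakaryocyte list, in which none of the 14 probe sets met the choice, 10 were higher after 24 h and none lower, against 17.4% and 13.9% of all probe sets, with a median of 0.33. Pf4 and Clec1b of that list changed by 0.04 each.

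Rises in cell division genes were Fzr1 (0.81), an activator of the ubiquitin ligase that ends mitosis, Bub1 (0.57) of the spindle checkpoint, the kinesin gene Kif4a (0.56), Dlgap5 (0.55), Cenpq (0.51) and Esco2 (0.57), which acts on cohesin. Esco2 and its pseudogenes Esco2-ps1 and Esco2-ps2 gave changes of 0.57 to 0.58, and since they are near-identical copies they may measure 1 transcript. In the cell cycle list, 8 of 39 probe sets were higher at 24 h and 5 lower, close to the 17.4% and 13.9% of all probe sets, with a median of 0.13. From 6 to 24 h, 14 of the 39 were higher and 2 lower, against 10.2% and 8.68% of all probe sets, with a median difference of 0.22. Its member Pcna, the replication clamp, belonged to the falls at -0.85.

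A few of the rises are known from macrophages or vessel lining. In the monocyte and macrophage list of 15 probe sets, 3 were higher at 24 h and 4 lower, against 17.4% and 13.9% of all probe sets, with a median of 0.05, and none was among the 285. Lyve1, a hyaluronan receptor of lymphatic endothelium and some macrophages, was at 10.11 ± 0.20 before occlusion, 10.69 ± 0.36 at 1 h, 10.07 ± 0.26 at 6 h and 11.02 ± 0.24 by 24 h. Tek, the angiopoietin receptor of endothelium, was at 6.34 ± 0.27 before occlusion, 6.45 ± 0.41 at 6 h and 7.15 ± 0.42 by 24 h. Cd93, found on endothelium and myeloid cells, was higher by 0.82, and Clec4f, a lectin of liver macrophages, by 0.80, of which 0.78 was present at 1 h. Vsig4, a complement receptor of resident macrophages, was higher by 0.50, with an SD of 0.51 at 24 h. The 2 rising genes of fatty acid oxidation differed in course. Cpt1a, which admits fatty acids to mitochondria, went from -0.31 at 1 h through 0.56 at 6 h to 0.72 at 24 h, and Acsl1, which activates them, from 0.44 at 1 h through -0.46 at 6 h to 0.75 at 24 h.

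Since only the 24 h blood was drawn from the heart, markers of heart, other muscle, lung, vessel and skin were read beside these rises. Of 21 probe sets for cardiac muscle genes, 6 were above their 0 h level at 24 h, against 17.4% of all probe sets. From 6 to 24 h none of the 21 was higher and 2 were lower, against 10.2% and 8.68%. The atrial peptide gene Nppa was at 6.65 ± 0.09 before occlusion (SD, n = 8), 6.69 at 6 h and 6.70 ± 0.11 at 24 h, and the cardiac troponin gene Tnnt2 was at 7.10 ± 0.11 before occlusion and 7.13 ± 0.09 by 24 h. Myh6 and Myh7, the cardiac myosin genes, were higher by 0.22 and 0.24. The exception was Tnnc1, which changed by 0.85 at 24 h but by 1.97 at 6 h, in tail blood. Of 13 endothelial probe sets, 2 of them chosen by this rise, 6 exceeded their 0 h level at 24 h, against 17.4% of all. From 6 to 24 h 1 was lower, and 3 were higher, namely Lyve1, Tek and Aqp1, a water channel that red cells also carry. Cdh5, Tie1 and Plvap, which mark endothelium, changed by 0.12, 0.01 and -0.02 and were not called. Relative to 0 h, the probe sets higher at 24 h were 3 of 8 for smooth muscle and pericytes, 4 of 13 for keratinocytes and skin, 7 of 11 for skeletal muscle and 3 of 7 for lung epithelium, with medians of 0.11, 0.08, 0.17 and 0.19. These counts stand beside 17.4% of all probe sets, and the shares were above it in each of the 4 lists. With quantile normalized means the 4 medians were 0.06, 0.0003, 0.11 and 0.12, so they depend in part on scaling. Across these 4 lists, 1 probe set, of skeletal muscle, was lower than at 0 h. Relative to 6 h, 1 skeletal muscle probe set was higher and none of the other 3 lists held any, while 3 of 7 for lung epithelium and 3 of 13 for keratinocytes and skin were lower, against 8.68% of all probe sets. None of the probe sets in these lists of heart, smooth muscle, skin, skeletal muscle and lung was among the 285. Outside the lists, the muscle genes Cald1, Tpm1, Txlnb and Asb15 were among the rises, with changes of 0.58, 0.57, 0.52 and 0.51. The part of the draw site in these rises was not tested.

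**Figure D4:**
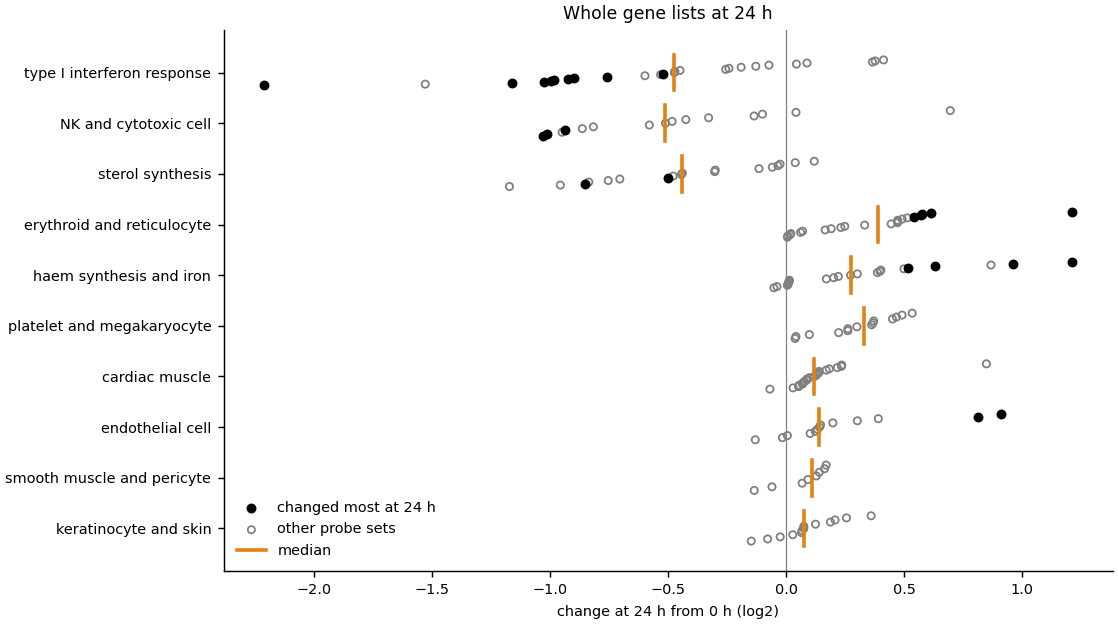
Change in mean log2 signal from 0 to 24 h for each probe set of 10 gene lists, with filled points for probe sets that changed most at 24 h, open points for the others and an orange bar at the median. The medians were -0.47 for the type I interferon list, 0.39 for the erythroid list and 0.12 for the cardiac muscle list.

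The falls were led by interferon-induced genes. Mx2, an antiviral GTPase, was at 9.67 ± 0.14 before occlusion (SD, n = 8), 8.86 ± 0.19 at 1 h, then 8.54 ± 0.21 at 2 h, followed by 8.35 ± 0.24 at 3 h, 7.48 ± 0.15 at 6 h (n = 7) and 7.46 ± 0.29 by 24 h, 4.63-fold below the start (log2 change -2.21, SE 0.10). Rtp4, a chaperone induced by interferon, was at 8.11 ± 0.21 before occlusion, 7.00 ± 0.32 at 6 h and 6.36 ± 0.28 by 24 h (-1.75, SE 0.14). The other 13 of the 15 largest falls had changes from -1.43 to -1.04. They were Igj, LOC102556096, Irgm, Oas1b, Slamf9, LOC100362391 and 7 probe sets of Rnf213. In all, 30 of the 103 falling probe sets belonged to 18 interferon-induced genes, with a median of -0.25 at 1 h, -0.84 at 6 h and -0.97 by 24 h. Rnf213, a very large ubiquitin ligase, gave 13 of the 30, and all 15 of its probe sets on the array lay between -1.34 and -0.78.

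Interferon acts on many of these genes through the interferon-stimulated response element, in which the letters GAAANNGAAA or their complement recur. The promoters in RefSeq (build GRCr8, from 250 bases before to 50 bases after the start of transcription) were searched for these letters on both strands. The sequences below are 60 bases around the match in falling genes, shown because the recurring letters can be read in them, with every matched base in capitals and the rest in lower case, 5′ to 3′ on the strand of the gene.
Irgm, chr10:33742578-33742637, minus strand: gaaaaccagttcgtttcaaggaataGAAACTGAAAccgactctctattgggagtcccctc
Oas1b, chr12:41395877-41395936, minus strand: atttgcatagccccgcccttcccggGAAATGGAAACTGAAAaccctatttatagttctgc
Ifi44, chr2:243303832-243303891, minus strand: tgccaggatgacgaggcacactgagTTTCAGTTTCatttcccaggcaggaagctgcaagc
Bst2, chr16:18255064-18255123, minus strand: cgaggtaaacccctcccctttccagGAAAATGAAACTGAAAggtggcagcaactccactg
Gbp5, chr2:233910918-233910977, plus strand: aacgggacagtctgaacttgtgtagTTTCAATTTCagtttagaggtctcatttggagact
Oasl2, chr12:47383302-47383361, minus strand: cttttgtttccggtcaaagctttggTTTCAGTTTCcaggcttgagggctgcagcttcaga
Parp14, chr11:78408033-78408092, plus strand: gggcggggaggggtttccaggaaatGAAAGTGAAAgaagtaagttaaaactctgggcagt
Parp12, chr4:68850525-68850584, minus strand: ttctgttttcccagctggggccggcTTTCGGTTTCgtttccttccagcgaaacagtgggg

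In Oas1b and Bst2 overlapping matches merge into a longer run, and in Ifi44, Gbp5, Oasl2 and Parp12 the letters lie on the opposite strand. A RefSeq promoter was found for 11 of the 18 interferon-induced genes, and 8 of the 11 (72.7%) held the letters. The whole type I interferon list, which includes genes that did not fall, had a like share, 11 of 16 (68.8%). Ifi47, Rnf213 and Stat2 did not hold them in this window. Of all 33469 promoters 3.92% held them, as did 13 of 52 promoters of falling genes (25%) and 3 of 127 promoters of rising genes (2.36%). Among the other falls they were found at Gzma, Psme2, Casp1, Lsm5 and LOC102556096. The letters AGATAA, read by GATA factors in red cell precursors, were present in 18 of the 127 rising promoters (14.2%), 3 of 10 of those of the red cell and iron genes (Trim58, Rhd and Sptb) and 11.6% of all promoters. A match is a description of the sequence and no evidence of binding.

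The interferon-induced genes reached their 24 h level by different routes. Mx2, Ifi44, Gbp5 and Oas1b, the last of the oligoadenylate synthetase family, had 91.7% or more of their fall in place at 6 h. Stat2, the factor that carries the type I interferon signal, was at 9.36 ± 0.13 before occlusion, 9.43 ± 0.17 at 3 h, 9.19 ± 0.12 at 6 h and 8.46 ± 0.20 by 24 h, so that most of its fall of 0.90 lay after 6 h. Ifi47, an interferon-inducible GTPase, was at 10.89 ± 0.08 before occlusion, 11.34 ± 0.13 at 3 h, 10.90 ± 0.12 at 6 h and 10.05 ± 0.11 by 24 h. Zbp1, a sensor of left-handed nucleic acid, Oas2 and Oasl2 were above their start by 0.46, 0.42 and 0.62 at 2 h and below it by 24 h, with changes of -0.84, -1.03 and -0.80. Ifi47, Zbp1, Oas2 and Oasl2 were among the 10 falls that had earlier moved the other way by more than their highest SD.

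The whole type I interferon list fell only in part. Of its 25 probe sets for 23 genes, 16 were lower at 24 h than at 0 h and 3 were higher. The other 6 were not called. Among all probe sets 13.9% were lower and 17.4% higher. Among the 16, 9 belonged to the falls, so their calls follow from the choice. The median of the list was 0.19 at 1 h, -0.22 at 6 h and -0.47 by 24 h. Isg15, a ubiquitin-like modifier, changed by 0.62 at 6 h but by -0.60 at 24 h, and so was not among the falls. Rsad2 and Cmpk2, neighbouring antiviral genes, stood at -0.43 and -0.25 after 6 h and were higher after 24 h (0.38 and 0.41). Ifit1 and Irf7 changed by 0.09 and -0.13 and were not called.

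Class I presentation and nucleic acid sensing were also represented. Psmb9, an interferon-induced subunit of the immunoproteasome, was at 8.21 ± 0.24 before occlusion, 8.12 ± 0.17 at 6 h and 7.54 ± 0.26 by 24 h, and both probe sets of the proteasome activator gene Psme2 changed by -0.88 and -0.84. In the interferon gamma and class I list 8 of 16 probe sets were lower at 24 h and none was higher. The median was -0.31, and the shares of all probe sets were 13.9% and 17.4%. Among the 8, 2 belonged to the falls, so their calls follow from the choice. Casp4 and Casp1, inflammatory caspases, changed by -0.94 and -0.57, Unc93b1, which carries Toll-like receptors to endosomes, by -0.55, and the kinase gene Tbk1 by -0.53. Casp4 had returned part of the way by 6 h, from 8.19 ± 0.24 at 1 h to 8.57 ± 0.07, against 8.86 ± 0.24 before occlusion and 7.93 ± 0.18 by 24 h.

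**Figure D5:**
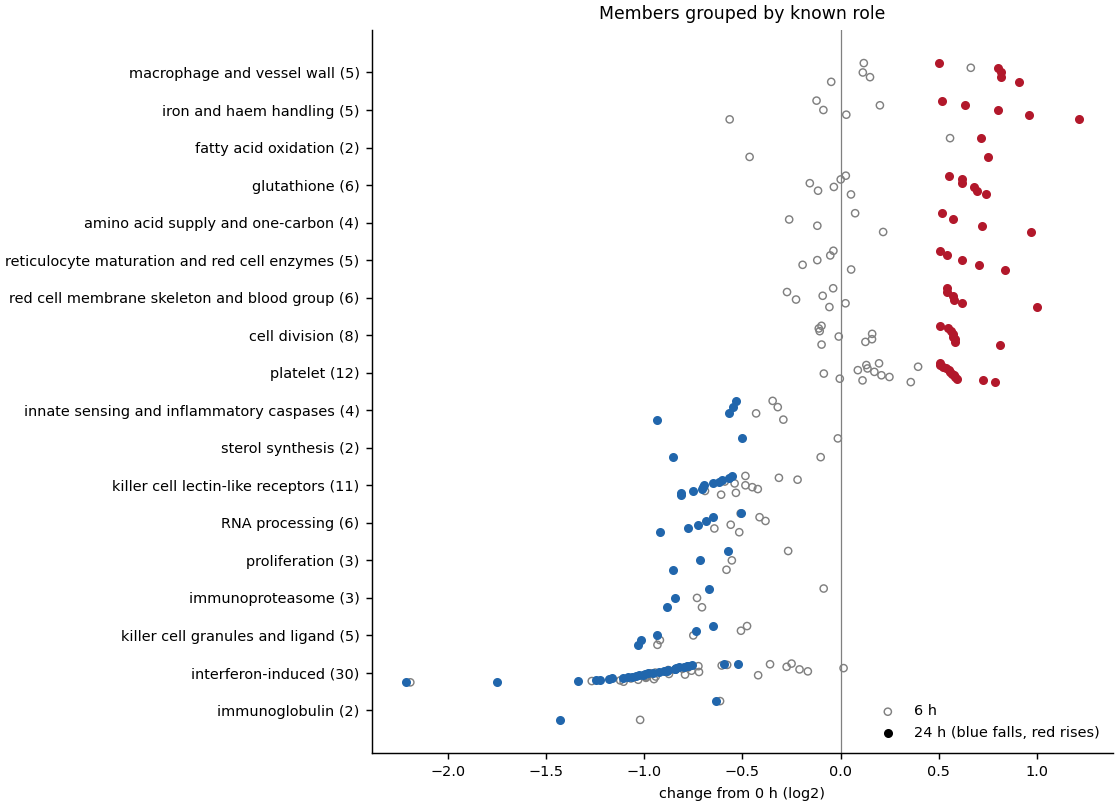
Change from 0 h in mean log2 signal at 6 h (open grey) and 24 h (filled) for 119 of the 285 probe sets, grouped by known role, with the number of probe sets in brackets. The 6 h medians of the rising groups run from -0.09 (iron and haem handling) to 0.15 (platelet). Single probe sets of these groups lie further out, such as Tfrc at -0.56 and Clec4f at 0.66. The interferon-induced group has a median of -0.84 at 6 h beside -0.97 at 24 h.

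Genes of killer cells made up another 16 of the falls. Gzma, a granule protease, was at 9.89 ± 0.36 before occlusion (SD, n = 8), 10.02 ± 0.52 at 1 h, 9.14 ± 0.66 at 6 h (n = 7) and 8.95 ± 0.54 by 24 h. Among 3 entries shared by Gzmb and its near copies, those in the falls changed by -1.03 and -1.02, Faslg, the death ligand, by -0.74, and Gzmk by -0.65. These share sequence, so the granzyme B entries cannot be assigned to 1 gene. All 11 lectin-like receptor probe sets, among them Klri1, Klri2, Klrc1 and Klra22 and several entries of the Ly49 family, changed by -0.81 to -0.55. The entry led by Ly49i4 and that for Ly49si1 had first risen beyond their highest SDs, by 0.65 and 0.44 at 2 h. On rn5, 10 of the 11 lay on chromosome 4 between 212120729 and 213573833. Of the other 9 probe sets with a symbol in that stretch, which were not chosen by their fall, 2 were called lower at 24 h and none higher, against 13.9% and 17.4% of all probe sets, and their changes ran from -0.58 to -0.02. Their Ly49 entries overlap in position and sequence and are not independent measurements. In the NK and cytotoxic list 11 of 15 probe sets were lower and 1, Klrb1b, was higher (0.70), with a median of -0.51. The shares of all probe sets were 13.9% and 17.4%. Among the 11, 3 belonged to the falls, so their calls follow from the choice.

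The lymphocyte lists moved without joining the falls. All 14 T cell probe sets and 14 of 17 B cell probe sets were lower at 24 h, against 13.9% of all probe sets. Their medians, -0.70 and -0.50, were smaller in size than those at 6 h, -1.16 and -1.57, and none was among the 103. Igj, the joining chain of IgA and IgM made by plasma cells, was at 8.17 ± 0.18 before occlusion, 7.15 ± 0.28 at 6 h and 6.74 ± 0.35 by 24 h (-1.43, SE 0.14). An entry for Lrp3, LOC314492 and Ighg changed by -0.64. Neutrophil markers also peaked before, with a median of 1.51 at 6 h and 0.59 at 24 h. The part of these shifts in the falls was not tested.

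Smaller groups of falls were those of RNA processing, sterol synthesis and proliferation. Srsf3, Magoh, Magohb, Lsm5, Ssb and Ptbp1, which act in splicing or bind RNA, changed by -0.92 to -0.51, with a median of -0.48 at 1 h. Idi1, an isomerase of sterol synthesis, was at 5.86 ± 0.35 before occlusion, 5.10 ± 0.28 at 1 h, 5.75 ± 0.31 at 6 h and 5.00 ± 0.22 by 24 h. In the sterol list 12 of 18 probe sets lay below their 0 h level at 24 h, against 13.9% of all probe sets. Below their 6 h level lay 9, against 8.68%, and none was higher in either comparison. Among the 12, 2 belonged to the falls, so their calls against 0 h follow from the choice. Insig1 and Msmo1 of that list changed by -1.17 and -0.96 at 24 h. Pcna, Stmn1 and Hmgb3 of proliferating cells changed by -0.85, -0.72 and -0.57. Slamf9, a receptor of the SLAM family, was at 6.73 ± 0.24 before occlusion, 5.72 ± 0.36 at 1 h and 5.57 ± 0.21 by 24 h, and so had most of its fall at 1 h.

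The spread between rats was not the same at all times. The median SD of the rises was 0.22 before occlusion, 0.29 at 6 h and 0.23 by 24 h, and in 101 of 182 the 6 h SD was the highest. The median SD of the falls was 0.21 before occlusion, 0.23 at 6 h and 0.25 by 24 h. Over all probe sets with a symbol it was 0.14 at 0 h and 0.15 at 6 and 24 h. The granzyme entries had SDs of 0.38 to 0.54 at 24 h. Of 25 symbols among the 285 with more than 1 probe set on the array, 20 had all their probe sets on the same side of 0 at 24 h, and those that did not included Usp54, Rbm33, Fam134b and RGD1561147. The role groups were set after the values were known and hold 53 of the rises and 66 of the falls, and the remaining 129 rises and 37 falls, such as Bco1 and Rnd3, were put in none of them.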

How the data were processed

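Each of 47 Affymetrix RaGene arrays was hybridized with RNA from 1 blood sample, and RNA was worked up in 6 batches with samples randomized, per the study's methods. The authors deposited 1 table of RMA log2 signals, with the authors' mean and SD per time point for 27596 probe sets and the annotation on rn5. It also holds the authors' fold changes, p-values and FDRs, which were not used. Its 47 columns of single arrays have names that match no sample and were used in no step, so batch, pairing and signal over background were not assessed. The submitters' processing notes name limma, without a version. The 0.5 threshold and the rule that the 24 h change be the largest were applied to the deposited means. Moderated tests of 24 h against 0 h and 6 h were rebuilt from the means and SDs deposited, given the number of arrays, with the variance over 6 time points shrunk by limma 3.58.1 in R 4.3.3 and Benjamini-Hochberg adjustment over all probe sets. They take the arrays as independent although the same rats were bled, so the spread of changes within rats was not estimated. Their p-values set a difference of means against the spread among arrays of these 8 rats only. On simulated data for 24 h against 0 h (27596 probe sets, 200 changed by 0.5), 179 were called and 12.7% of calls were false when each time point had its own SD, and 3.65% when all shared 1 SD. Genes were named by size (the 15 largest rises and falls), nearness to the threshold (3 on each side), or membership of a list. Genes named beyond these were chosen after their values were seen. Some genes within these rules are not reported here. The genes and the 32 lists were chosen with earlier results of these data known, and the role groups after seeing the values. Alternatives were centring or quantile normalizing the means, other thresholds, leaving out the 25% of probe sets with the lowest signal, and other variance estimates. Promoters are those of RefSeq on GRCr8, and no coordinates were moved between builds.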

Additional observations from a re-analysis of the deposited data

How the results depend on the processing

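With a threshold of 0.4 in place of 0.5 there were 296 rises and 180 falls, and with 0.6 there were 90 rises and 75 falls. When the 24 h change had to exceed each earlier change by more than the highest deposited SD, 39 rises and 14 falls remained, among them Tfrc, Serpinb2, Rtp4 and Stat2. Centring the means gave 137 rises (135 shared with the 182) and 136 falls (all 103 shared), and quantile normalization of the means 230 and 95 (173 and 82 shared). Without the lowest 25% by signal there were 180 and 101. Centring also changed the calls of 24 h against 0 h from 4794 higher and 3826 lower to 2749 higher and 4627 lower, so that 37.3% instead of 55.6% of called probe sets were higher. The other tests of 24 h against 0 h gave 4187 to 4857 higher and 3752 to 3798 lower, and those against 6 h 2361 to 2866 higher and 2043 to 2611 lower. The medians of the 32 lists moved by less than their SD in all 96 comparisons. So did the changes of the 30 probe sets with the largest rises and falls, in all 60. Small list medians still depended on scaling. That of keratinocytes and skin went from 0.08 to 0.03 with centring and 0.0003 with quantile normalization. That of smooth muscle and pericytes went from 0.11 to 0.07 and 0.06. The eosinophil, basophil and mast cell median (0.01) and the immediate early and hypoxia median (0.03) changed sign under both. No paired analysis was possible because the columns used carry no rat number and the labels used here do not tie the numbered single-array columns to rats, and for the same reason the fits that leave out each rat or hold the rat as a block were not run.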
